A study of Mus musculus with 6 samples.

Results

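Insulin-like growth factor (IGF) binding proteins were examined in the liver of Sesn3 knockout and wild-type mice. The members were the 7 genes Igfbp1 to Igfbp7, chosen by symbol and not by their values, and all 7 were among the 24421 gene symbols of the count table. The design had 6 liver RNA samples, 3 labelled Sesn3 KO (KO) and 3 labelled wild type (WT), all from male mice of strain C57BL/6 at an age of 4 months. Every mouse, controls included, had eaten for 4 weeks a diet whose energy came from fat (40%), carbohydrate (40%) and protein (20%), and to which cholesterol (1.25%) and the bile salt sodium cholate (0.5%) had been added. How Sesn3 was deleted, and in which tissues, is not given in the sources used here, and no group on another diet was part of the design.

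IGF1 is made mainly by the liver under growth hormone and circulates almost wholly bound to these secreted proteins, which carry it, prolong its life in blood and keep it from its receptor. IGFBP3, and to a lesser extent IGFBP5, hold IGF1 in a ternary complex with the acid-labile subunit, the product of Igfals. IGFBP1 is a short-lived liver product that insulin represses and fasting or amino acid shortage raises. Sesn3 encodes sestrin 3, a stress-inducible protein that acts on mTORC1 and AMPK signalling, which lie downstream of insulin and IGF receptors or cross with them.

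Libraries held 18882220 to 24098512 counts. Levels are given as CPM, read counts relative to library size, scaled by TMM factors (trimmed mean of M values, a correction for library composition). Sesn3 itself was at 0.689 to 0.761 CPM in the KO libraries and at 9.0 to 11.6 CPM in the WT libraries. Summed levels of 7 hepatocyte markers, mostly Alb and Trf, were 132834 to 155644 CPM in KO and 109663 to 171156 CPM in WT. None of the 7 passed the edgeR test described below. KO and WT libraries did not overlap for 4 of the 7, against 33.5% of all tested genes. Apoa1, Ttr and Apoh were lower and Trf was higher in every KO library. Over the whole table, 12945 genes had enough counts to be tested and edgeR's quasi-likelihood test called 898 of them (6.94%) at an adjusted p under 0.05, with 435 higher and 463 lower in KO. With library size only, the split became 707 and 258, and the median gene moved by 0.21 on the log2 scale. The 898 became 295, 101 and 261 when KO replicate 1, 2 or 3 was left out and 292 when WT replicate 3 was, so a call lost in those fits was lost together with most others.

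All 7 IGF-binding protein genes passed the filter on low counts, and 2 of the 7 passed the test. Igfbp3 rose and Igfbp5 fell in KO, against 3.36% of all tested genes that rose and 3.58% that fell. Igfbp1, Igfbp2 and Igfbp7 had positive log2 fold changes of 1.45, 0.55 and 0.51, and Igfbp4 and Igfbp6 negative ones of -0.46 and -0.78, none of which passed. KO and WT libraries did not overlap for 3 of the 7 genes, Igfbp3, Igfbp5 and Igfbp6, against 33.5% of all tested genes. No member changed sign with other scaling factors, other filters, other tests or any 1 library left out.

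**Figure D1:**
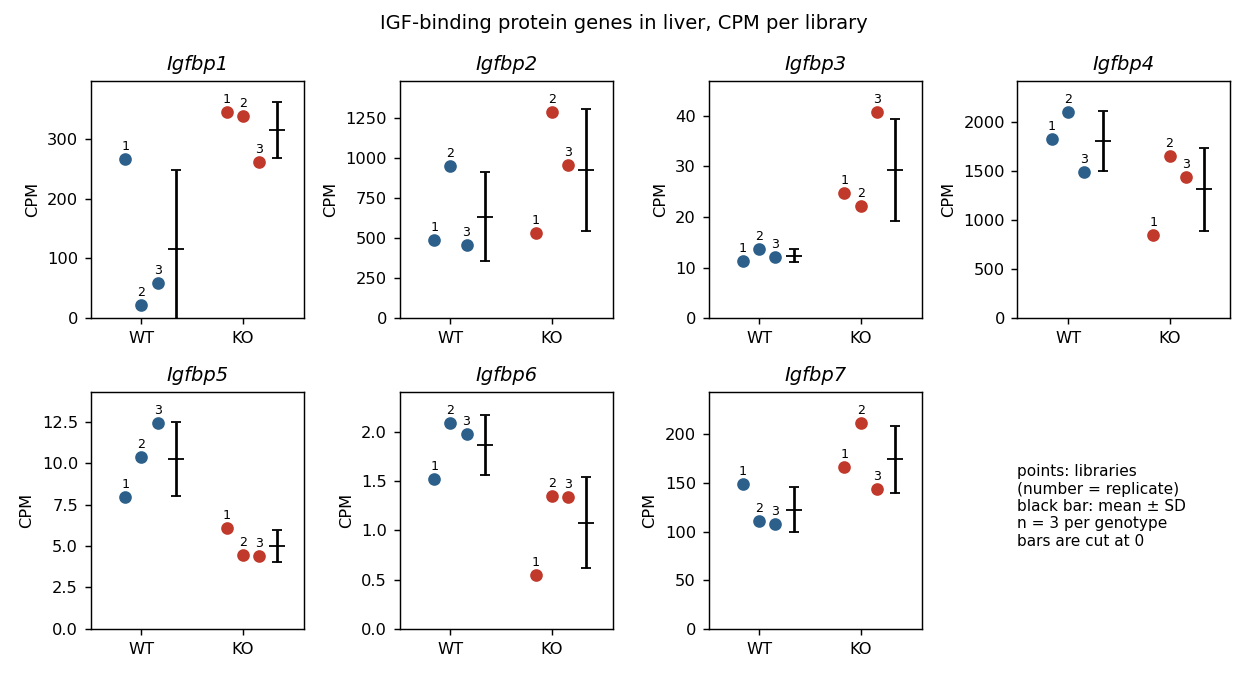
CPM (vertical axis, linear from 0, own scale per gene) of each IGF-binding protein gene in the WT (blue) and KO (red) libraries. Points are libraries with their replicate number, and black bars are mean ± SD with n = 3. The KO points lie above all WT points for Igfbp3 and below them for Igfbp5 and Igfbp6. WT replicate 1 sits among the KO libraries for Igfbp1.

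Levels of different genes were compared per kilobase of exon, so that long transcripts do not count more. In the WT libraries Igfbp4 stood at 409 ± 69.7 CPM per kb (SD, n = 3), Igfbp2 at 343 ± 151, Igfbp7 at 101 ± 19.0 and Igfbp1 at 75.9 ± 86.7. Igfbp3 followed at 3.95 ± 0.400 CPM per kb, Igfbp5 at 1.71 ± 0.374 and Igfbp6 at 1.67 ± 0.273. The neighbours Igfbp4 and Igfbp2, Igfbp7 and Igfbp1, and Igfbp5 and Igfbp6 overlapped in their library values, while Igfbp2 and Igfbp7 did not overlap and Igfbp3 lay apart from both of its neighbours. In the KO libraries the order was Igfbp2 at 502 ± 205 CPM per kb, Igfbp4 at 298 ± 95.3, Igfbp1 at 207 ± 30.4 and Igfbp7 at 144 ± 28.6, then Igfbp3 at 9.33 ± 3.22. Igfbp6 at 0.970 ± 0.412 and Igfbp5 at 0.830 ± 0.159 CPM per kb came last. The library values of each gene overlapped with those of the next, except that Igfbp3 again lay apart from both neighbours. Thus 4 genes carried nearly all of the family's RNA in both genotypes, and the serum carrier Igfbp3 was a minor transcript in whole liver.

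In the make-up of the family's summed level per kb, the shares of Igfbp4, Igfbp5 and Igfbp6 did not overlap between the groups. Igfbp4 made up 42.1%, 43.0% and 46.8% in WT replicates 1 to 3 and 22.4%, 25.4% and 28.4% in KO replicates 1 to 3. The share of Igfbp5 was 0.0504 to 0.119% in KO and 0.135 to 0.288% in WT, and that of Igfbp6 was 0.0579 to 0.104% in KO and 0.139 to 0.247% in WT. Igfbp1 made up 17.8%, 1.27% and 5.35% in the WT libraries and 26.5%, 15% and 14.9% in the KO libraries, where WT replicate 1 lay inside the KO range. The sum over the 7 genes was 982, 1107 and 720 CPM per kb in WT and 853, 1480 and 1150 in KO, which overlap. These shares are a description of the members together and carry no test.

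**Figure D2:**
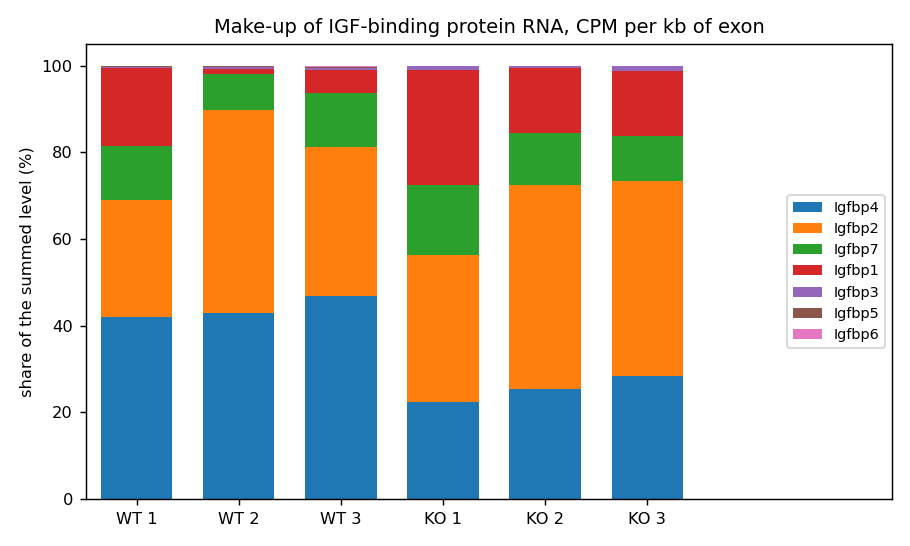
Share (vertical axis, %) of each IGF-binding protein gene in the summed CPM per kb of exon of the 7 genes, one stacked bar per library. Igfbp4, the lowest block, takes 42.1 to 46.8% in the WT bars and 22.4 to 28.4% in the KO bars.

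Igfbp3, the main carrier of IGF1 in serum, was higher in every KO library. Its levels were 24.8, 22.1 and 40.8 CPM in KO replicates 1 to 3 (586, 573 and 946 counts) and 11.3, 13.7 and 12.1 CPM in WT replicates 1 to 3 (215, 236 and 227 counts). The WT libraries lay close together, the highest being 1.22 times the lowest, and KO replicate 3 was the highest of all. The mean was 29.2 ± 10.1 CPM in KO and 12.4 ± 1.25 CPM in WT (SD, n = 3 each), a 2.36-fold rise (log2 1.24 ± 0.24 SE, adjusted p = 0.0296 by edgeR). Without 1 library the log2 fold change ranged from 0.92 to 1.41, and the adjusted p missed the threshold without KO replicate 1, KO replicate 2, WT replicate 1 or WT replicate 3, at up to 0.0985.

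In rodent liver Igfbp3 is known as a product of cells other than hepatocytes, such as endothelial and Kupffer cells. Summed sinusoidal endothelial markers were at 187 to 426 CPM in KO and 362 to 494 CPM in WT, and 0 of 8 passed the edgeR test. Kupffer cell markers summed to 1720 to 2204 CPM in KO and 842 to 1659 CPM in WT. Of the 7, 2 passed as higher, Clec4f and Vsig4, against 3.36% of all tested genes that rose. Timd4 and Marco had negative log2 fold changes (-0.52 and -0.07). Cd5l, which did not pass, was the largest part of each sum (931 to 1222 CPM in KO). Fibroblast and myofibroblast markers summed to 614 to 900 CPM in KO and 75.7 to 263 CPM in WT. Of the 10, 4 passed as higher (Col1a1, Col1a2, Col3a1 and Lum), against the same 3.36% of all tested genes. Only Thy1 had a negative log2 fold change (-1.0). Stellate cell markers summed to 255 to 305 CPM in KO and 201 to 214 CPM in WT, and 0 of 9 passed. Each of the 6 named marker calls was lost in 3 to 5 of the 6 fits that left out a library (highest adjusted p 0.126), and no marker of the 4 lists was at 0 in every library. The part of these cells in the Igfbp3 result was not tested, and in bulk tissue a change in the number of cells of a type and a change in RNA per cell cannot be told apart.

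Igfbp3 lies on chromosome 11 from 7206086 to 7213923 (mm10, minus strand), and Igfbp1 lies on the same chromosome from 7197782 to 7202546 (plus strand). The pair runs tail to tail, with 3539 bases and no annotated gene between them, and no annotated exon of another gene overlaps either. Igfbp2 (chromosome 1, 72824503 to 72852474, plus strand) and Igfbp5 (72857932 to 72874884, minus strand) form a like pair, 5457 bases apart. The log2 fold changes were 1.24 for Igfbp3 and 1.45 for its neighbour Igfbp1, and -1.04 for Igfbp5 and 0.55 for its neighbour Igfbp2. The difference between neighbours was not tested.

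Igfbp5, a matrix-binding member that can also enter the ternary complex, was lower in every KO library. It was at 6.09, 4.48 and 4.39 CPM in KO replicates 1 to 3 (144, 116 and 102 counts) and at 7.95, 10.3 and 12.4 CPM in WT replicates 1 to 3 (152, 178 and 233 counts). The groups did not overlap, and the gap between KO replicate 1 and WT replicate 1 was the narrowest. The mean was 4.99 ± 0.954 CPM in KO and 10.2 ± 2.25 CPM in WT (SD, n = 3 each), a 2.05-fold fall (log2 -1.04 ± 0.23 SE, adjusted p = 0.0426 by edgeR). The call was lost with upper-quartile factors (adjusted p = 0.0518) and with library size only (log2 fold change -0.82, adjusted p = 0.102). It held without WT replicate 1 and was lost without each of the other 5 libraries, the highest adjusted p being 0.164. Mesothelial markers, from a cell layer on the liver surface, summed to 1.5 to 2.59 CPM in KO and 3.61 to 5.13 CPM in WT, and 0 of the 3 that could be tested passed. Of these 3, Msln and Upk3b had negative log2 fold changes (-1.67 and -1.45) and Wt1 a positive one (0.54). The sums of the stellate list and of the fibroblast and myofibroblast list, given with Igfbp3, went the other way. Both were higher in every KO library than in any WT library. The part of any of these cells in the Igfbp5 result was not tested.

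The ratio of Igfbp3 to Igfbp5 per kb of exon was 7.81, 9.48 and 17.8 in the KO libraries and 2.71, 2.54 and 1.87 in the WT libraries. The groups did not overlap in this ratio, which follows from the opposite directions of both genes and is no separate result. The start regions of both genes are shown because these are the members that passed the test. They are given 5′ to 3′ on the strand of the gene, from 250 bases before to 50 after the RefSeq start site (GRCm38.p6), at chr11:7213874-7214173 for Igfbp3 and chr1:72874816-72875115 for Igfbp5. All letters are in lower case because none of the 4 motifs described with Igfbp1 was found in them.
Igfbp3: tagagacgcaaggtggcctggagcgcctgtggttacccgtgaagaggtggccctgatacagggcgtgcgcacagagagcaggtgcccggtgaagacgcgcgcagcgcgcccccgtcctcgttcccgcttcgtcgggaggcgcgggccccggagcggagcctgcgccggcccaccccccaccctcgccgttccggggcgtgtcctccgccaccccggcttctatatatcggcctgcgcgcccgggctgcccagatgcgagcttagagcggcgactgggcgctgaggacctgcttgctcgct
Igfbp5: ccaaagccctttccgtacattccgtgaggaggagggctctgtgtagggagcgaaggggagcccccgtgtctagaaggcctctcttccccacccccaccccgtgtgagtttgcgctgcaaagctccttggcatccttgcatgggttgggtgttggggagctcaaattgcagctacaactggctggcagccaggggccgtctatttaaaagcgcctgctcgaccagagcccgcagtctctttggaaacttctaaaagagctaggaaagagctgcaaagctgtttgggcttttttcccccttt
The Igfbp3 window held 71.7% G and C and 37 CG dinucleotides, and the Igfbp5 window 56.3% and 10, against a median of 52.7% G and C over 32851 windows of the same length.

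Igfbp1, the acutely regulated liver product, was split among the WT libraries. It was at 345, 338 and 262 CPM in KO replicates 1 to 3 (8171, 8769 and 6079 counts) and at 267, 21.5 and 58.8 CPM in WT replicates 1 to 3 (5098, 370 and 1100 counts). WT replicate 1 lay above KO replicate 3, while WT replicates 2 and 3 lay far below every KO library. The highest WT library was 12.4 times the lowest, against 1.32 times in KO. The mean was 315 ± 46.3 CPM in KO and 116 ± 132 CPM in WT (SD, n = 3 each), and the log2 fold change of 1.45 ± 0.80 (SE) missed the threshold (edgeR, adjusted p = 0.301). When WT replicate 1 was left out, the estimate was 2.98 ± 0.45 (SE) and passed (edgeR, adjusted p = 0.0201), while without each other library it was between 0.95 and 1.56 and did not pass, the highest adjusted p being 0.523. The Igfbp1 result therefore rested on 1 library.

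Markers of other cells also varied among the WT libraries. Markers of monocyte-derived macrophages summed to 956 CPM in WT replicate 1 and to 194 and 421 CPM in WT replicates 2 and 3. The KO sums were 930 to 977 CPM. Lyz2 made up most of each sum (763 CPM in WT replicate 1), and the markers disagreed on the place of WT replicate 1. It lay below every KO library for Trem2, Gpnmb and Cd68 (8.69, 59.8 and 73.5 CPM). For Lyz2, Ly6c2 and Ccr2 (763, 16.4 and 18.3 CPM) it lay above every KO library, and for Itgam inside the KO range. Fibroblast and myofibroblast markers summed to 263, 75.7 and 171 CPM in WT replicates 1 to 3, all below KO. Over all genes WT replicate 2 was the most distant WT library, with a chi-square of counts per degree of freedom of 134 against WT replicate 1 and 87.2 against WT replicate 3, while WT replicates 1 and 3 stood at 53.9. Whether these values bear on Igfbp1 was not tested.

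The start region of Igfbp1 is shown because it holds the element through which, in human and rat, insulin represses the gene by way of FOXO factors. The window is chr11:7197537-7197836 (GRCm38.p6, RefSeq start site, plus strand), 5′ to 3′, and the capitals mark the core of that element.
Igfbp1: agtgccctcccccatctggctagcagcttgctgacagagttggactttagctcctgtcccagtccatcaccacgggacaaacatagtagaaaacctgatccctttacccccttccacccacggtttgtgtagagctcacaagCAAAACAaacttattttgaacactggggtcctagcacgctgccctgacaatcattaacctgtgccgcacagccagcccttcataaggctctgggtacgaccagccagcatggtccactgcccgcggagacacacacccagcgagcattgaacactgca
Windows of all 7 members were searched on both strands for 4 motifs, namely CAAAACA (insulin response element core), GTAAACA (FOXO), TTCNNNGAA (STAT) and GATGCAA (ATF4 with C/EBP). CAAAACA was found once, in Igfbp1, 108 bases before the start site, and 6.28% of 32851 windows hold it. The other 3 motifs were in none of the 8 member windows (Igfbp2 has a pair) and in 3.65%, 8.3% and 2.53% of all windows. A match describes letters and does not show that a factor binds, and a window without a match says only that these letters are not in it.

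Igfbp2, which binds both IGFs, carries an integrin-binding sequence and is known to fall with obesity, varied within both groups. Its levels were 533, 1290 and 957 CPM in KO replicates 1 to 3 and 488, 954 and 457 CPM in WT replicates 1 to 3. KO replicate 1 lay beside the lower WT libraries and WT replicate 2 beside KO replicate 3, so the groups overlapped. The log2 fold change of 0.55 (SE 0.40) did not pass (edgeR adjusted p = 0.431) and ranged from 0.23 to 0.97 without 1 library.

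Igfbp4, an inhibitory member that the protease PAPP-A cleaves, had the highest mean level per kb of the family in WT, although Igfbp2 was above it in WT replicate 2. It was at 844, 1657 and 1441 CPM in KO replicates 1 to 3 and at 1824, 2102 and 1488 CPM in WT replicates 1 to 3. KO replicate 1 was the lowest of the 6, and KO replicate 2 lay inside the WT range. The log2 fold change of -0.46 (SE 0.28) did not pass (edgeR adjusted p = 0.35).

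Igfbp6, which prefers IGF2, was near the limit of what the depth could measure. Its reads numbered 13, 35 and 31 in KO replicates 1 to 3 and 29, 36 and 37 in WT replicates 1 to 3, or 0.549, 1.35 and 1.34 CPM against 1.52, 2.09 and 1.98 CPM. Every KO library was below every WT library, and KO replicate 1 was the lowest. The log2 fold change of -0.78 (SE 0.42) did not pass (edgeR adjusted p = 0.285) and was -0.46 without KO replicate 1.

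Igfbp7 binds IGFs with low affinity and is secreted by vessel wall and mesenchymal cells, and the endothelial receptor CD93 binds it. It was at 166, 212 and 144 CPM in KO replicates 1 to 3 and at 149, 111 and 108 CPM in WT replicates 1 to 3. The groups overlapped only in WT replicate 1 and KO replicate 3. The log2 fold change of 0.51 (SE 0.19) did not pass when adjusted over all genes (edgeR adjusted p = 0.152, unadjusted p = 0.0316), and the lowest adjusted p without 1 library was 0.0821. The gene shares 85 exon bases with Polr2b on the opposite strand, and the strand setting of the counts is not given, so some of its reads could belong to Polr2b, which stood at 53.5 ± 3.05 CPM in WT and 41.6 ± 2.61 CPM in KO (SD, n = 3 each). For Cd93 the log2 fold change was 0.34 ± 0.38 (SE), which missed the threshold (edgeR, adjusted p = 0.609).

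**Figure D3:**
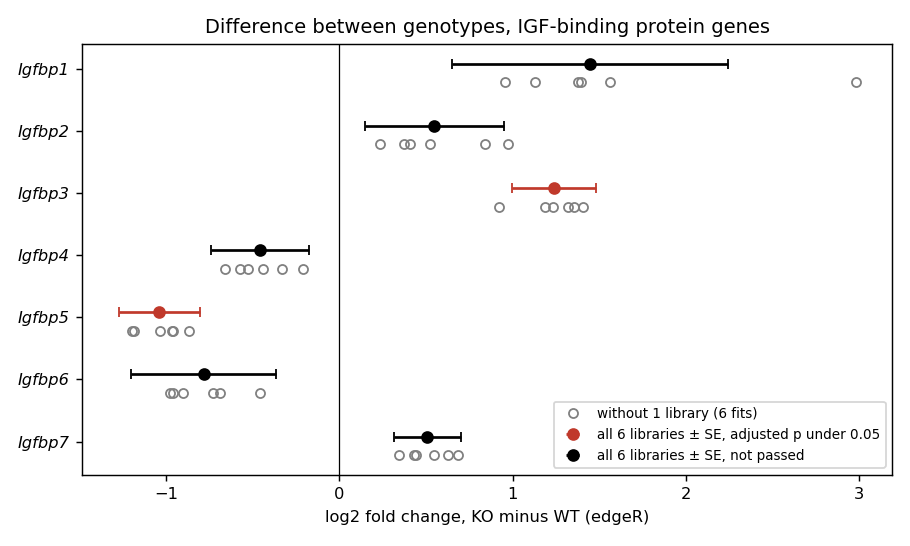
Log2 fold change of KO minus WT (horizontal axis, edgeR) for the 7 genes, with the estimate ± SE over all 6 libraries as a filled point (red where the adjusted p was under 0.05) and the 6 estimates without 1 library as open circles. Igfbp3 and Igfbp5 are red, and the open circle of Igfbp1 at 2.98 is the fit without WT replicate 1.

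Seen across the libraries, the members did not follow one profile. Likeness was measured as the root mean square difference of log2 CPM, each gene centred on its mean over the 6 libraries, so that a small value means a similar profile. Within the family Igfbp4 and Igfbp6 were the closest pair (0.30), both low in KO replicate 1, and Igfbp1 and Igfbp5 the most distant (2.0). Candidates were drawn from 11662 tested genes with a mean of at least 1 CPM. Unnamed gene models were left out, and the IGF-binding protein genes are in that number but were not ranked. The nearest to Igfbp3 were Zfp862-ps (0.092), Tbc1d19 (0.196) and Adamtsl4 (0.215). The nearest to Igfbp5 were Dnajb11, an ER co-chaperone (0.105), Map3k15 (0.116) and Cyp2r1, a vitamin D 25-hydroxylase (0.135). The nearest to Igfbp6 were Asic5 (0.0794), Lipg (0.101) and Coq10b (0.103). With 6 libraries and so many candidates near matches are to be had for most profiles, and nothing about shared control follows from them.

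**Figure D4:**
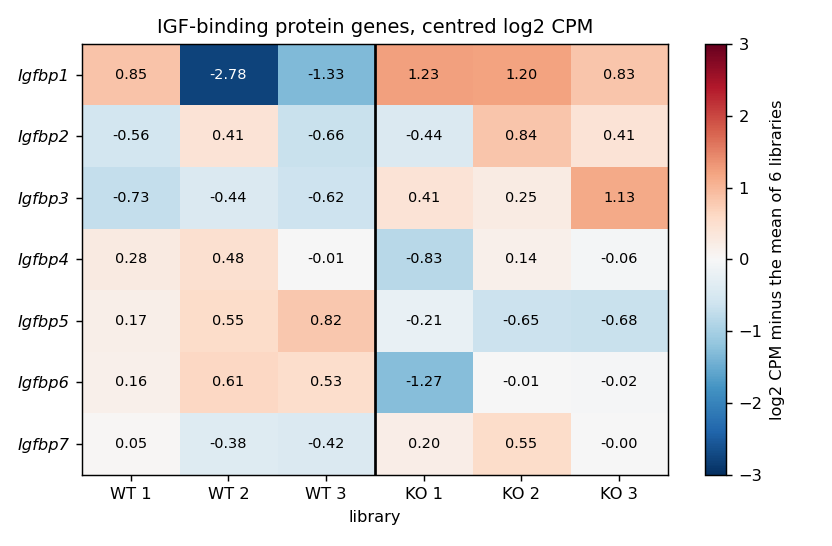
Log2 CPM minus the mean of the 6 libraries (colour and printed number) for the 7 genes (rows) in each library (columns, WT left and KO right of the line). Igfbp1 is at 0.85 in WT replicate 1 and at -2.78 and -1.33 in WT replicates 2 and 3, and Igfbp4 and Igfbp6 are lowest in KO replicate 1.

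The rest of the IGF system was described with lists of 53 other genes, of which 44 could be tested, and 8 of them rose and 2 fell (22.7% called, against 6.94% of all tested genes). The lists were chosen with earlier results of these data known. Of the 10 calls, 5 came from the list of ATF4 and FGF21 genes, which includes known inducers of Igfbp1 and lies outside the IGF system itself. Among the other 38 tested genes 5 were called (13.2%). The 10 calls became 2 without KO replicate 2, and 5 without KO replicate 1, KO replicate 3 or WT replicate 3. The IGF ligand and its partner in serum did not pass. Igf1 was at 199, 272 and 320 CPM in KO replicates 1 to 3 and at 394, 466 and 319 CPM in WT replicates 1 to 3. KO replicate 3 and WT replicate 3 had nearly the same level, and the log2 fold change of -0.58 (SE 0.22) did not pass (edgeR adjusted p = 0.155). Igfals was at 33.3, 62.7 and 79.5 CPM in KO and at 92.8, 140 and 65.3 CPM in WT, and its log2 fold change of -0.76 ± 0.37 (SE) missed the threshold (edgeR, adjusted p = 0.248). Both were lowest in KO replicate 1. Igf2, silent in adult mouse liver, was at 0.302 to 0.617 CPM in KO and 0.233 to 0.733 CPM in WT and was too low to test.

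Binding protein RNA relative to Igf1 RNA was higher in each KO library. The summed level of the 7 genes per kb was 42.6, 53.8 and 35.6 times that of Igf1 in KO replicates 1 to 3 and 24.7, 23.5 and 22.3 times in WT replicates 1 to 3. The groups did not overlap in this ratio, which joins the members into one value and therefore carries no test, and Igfbp2, Igfbp4, Igfbp1 and Igfbp7 make up nearly all of its numerator.

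Of the receptors, Igf2r, which clears IGF2 and sorts lysosomal enzymes, rose. It was at 77.2, 72.5 and 84.9 CPM in KO and at 53.3, 54.5 and 50.2 CPM in WT (log2 fold change 0.57, SE 0.11, edgeR adjusted p = 0.0266). The call was lost without KO replicate 1, 2 or 3 or WT replicate 3 (highest adjusted p 0.0897). Igf1r, the signalling receptor, was low in whole liver at 2.5 to 4.71 CPM in KO and 2.78 to 3.49 CPM in WT, and Insr was at 82.8 to 105 CPM in KO and 91.0 to 125 CPM in WT. Neither passed (edgeR adjusted p of 0.838 and 0.426), and the sign of Igf1r turned without KO replicate 2.

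Proteases that free IGFs from their binding proteins were mostly too low to test. Pappa was at 0 counts in all 3 WT libraries and at up to 0.386 CPM in KO, Pappa2 at up to 0.0772 CPM, and Adam28 had no counts in any library. The inhibitors Stc1 and Stc2 reached at most 0.154 and 0.302 CPM. The 2 tested genes, Htra1 and Adam12, had log2 fold changes of 0.13 (SE 0.29) and 1.71 (SE 0.62) and did not pass, and neither did any of the 5 cell surface partners (Itga5, Itgb1, Lrp1, Tmem219 and Cd93). Of 12 relatives that share the IGF-binding domain, 9 were tested and 2 of the 9 rose, against 3.36% of all tested genes. Esm1, an endothelial proteoglycan, was at 4.23, 3.43 and 2.20 CPM in KO and 0.419, 0.872 and 1.01 CPM in WT (log2 fold change 2.09, SE 0.43, edgeR adjusted p = 0.0332). Cyr61, a matricellular protein also named CCN1, was at 19.3, 15.5 and 16.6 CPM in KO and 5.28, 9.01 and 7.37 CPM in WT (log2 fold change 1.25, SE 0.21, edgeR adjusted p = 0.0201). Both calls were lost without the same 4 libraries as that of Igf2r (highest adjusted p 0.126 and 0.0775).

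**Figure D5:**
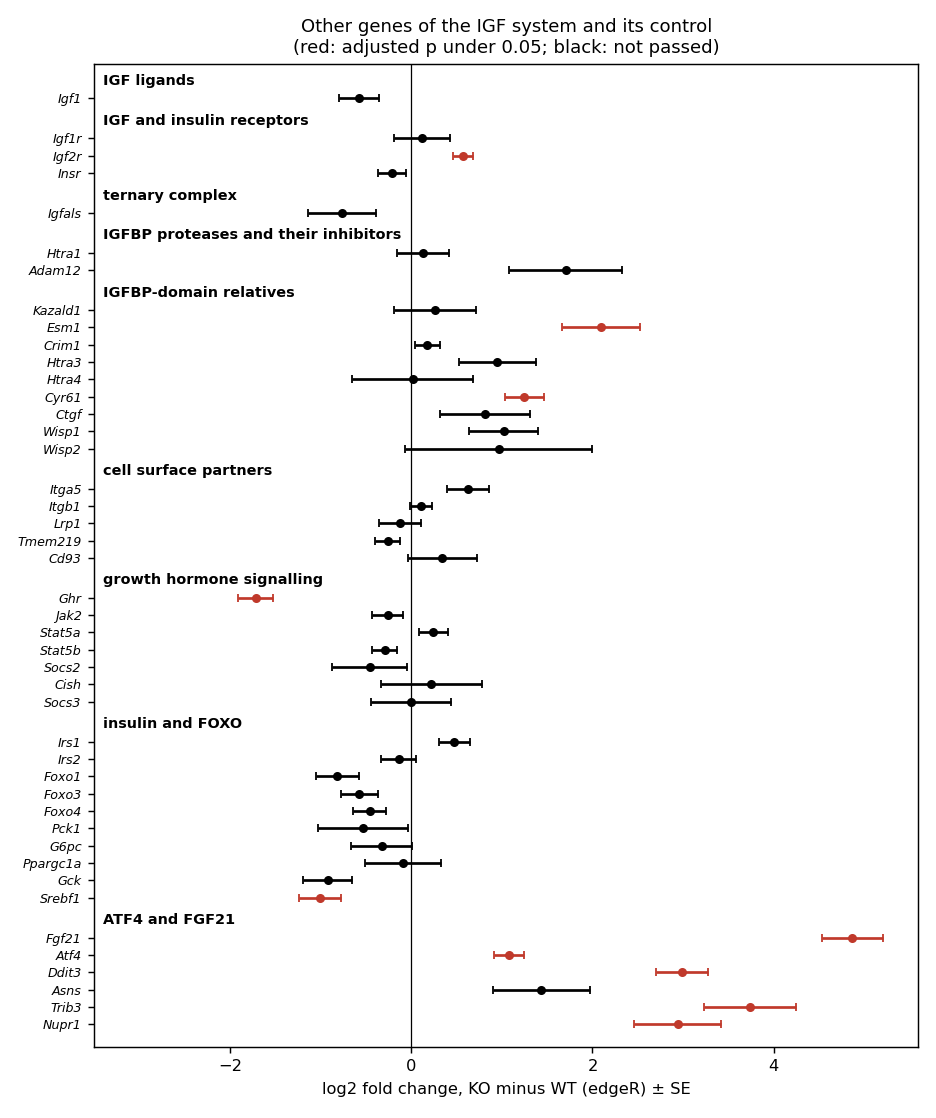
Log2 fold change of KO minus WT ± SE (horizontal axis, edgeR) for the 44 tested genes of the IGF system and its hormonal control, grouped by role. Red points had an adjusted p under 0.05: Igf2r, Esm1, Cyr61, Fgf21, Atf4, Ddit3, Trib3 and Nupr1 to the right of 0, and Ghr and Srebf1 to the left.

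Growth hormone acts through its receptor and STAT5 to raise hepatic Igf1 and Igfals and serum IGFBP3. Of 7 genes of this route 1 fell, against 3.58% of all tested genes, namely Ghr, the receptor. It was at 118, 138 and 168 CPM in KO and at 448, 556 and 394 CPM in WT (log2 fold change -1.72, SE 0.20, edgeR adjusted p = 0.00626), and the call was lost without KO replicate 2 (adjusted p = 0.0525). The other 6, Stat5a, Stat5b, Jak2, Socs2, Cish and Socs3, did not pass.

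Insulin signalling and the FOXO factors it silences are the textbook regulators of Igfbp1. Of 10 genes 1 fell, against 3.58% of all tested genes. It was the lipogenic factor Srebf1 (log2 fold change -1.0, SE 0.23, edgeR adjusted p = 0.0465). Its call was lost in every fit that left out a library except WT replicate 3 (highest edgeR adjusted p 0.175). The call was also lost with upper-quartile factors (edgeR adjusted p 0.0525) and with library size only (0.0657). Foxo1 was at 29.3, 36.4 and 49.8 CPM in KO and at 55.9, 86.8 and 60.9 CPM in WT, and its log2 fold change of -0.82 (SE 0.24) did not pass (edgeR adjusted p = 0.0861). Pck1, a gluconeogenic gene that FOXO1 also raises, was at 587, 2597 and 2436 CPM in KO and 2707, 2726 and 2693 CPM in WT, with KO replicate 1 alone far below the rest. In Igfbp1 the same 3 WT libraries differed 12.4-fold. The part of insulin or FOXO signalling in the Igfbp1 level was not tested. Of 6 genes of the ATF4 and FGF21 list, which includes known inducers of Igfbp1, 5 rose, against 3.36% of all tested genes. The list was chosen with earlier results of these data known. The 5 were Fgf21, Atf4, Ddit3, Trib3 and Nupr1, and Asns did not pass (edgeR adjusted p = 0.152). Fgf21 and Ddit3 kept their call whichever library was left out, Atf4 and Trib3 lost it without KO replicate 2 or WT replicate 3, and Nupr1 without KO replicate 1, 2 or 3 (highest adjusted p 0.0871). Their summed level was 91.7, 85.0 and 93.4 CPM in WT replicates 1 to 3 and 343 to 482 CPM in KO. Within the list the order of the WT libraries differed from gene to gene. For Atf4 it was 65.4, 51.1 and 49.5 CPM in WT replicates 1 to 3, for Ddit3 6.02, 3.55 and 4.38, and for Trib3 6.33, 25.0 and 11.4. Fgf21 was at 1.26, 0.523 and 1.66 CPM, Asns at 9.84, 4.13 and 23.0, and Nupr1 at 2.88, 0.698 and 3.47. WT replicate 2, lowest of the WT libraries for Igfbp1, was thus also lowest for Ddit3, Fgf21, Asns and Nupr1, but not for Atf4 or Trib3. The part of these genes in the Igfbp1 level was not tested.

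Of the remaining marker lists, those of vein and artery endothelium (134 to 150 CPM in KO, 106 to 150 CPM in WT), cholangiocytes (144 to 168 and 71.4 to 102 CPM), smooth muscle (3.40 to 6.02 and 1.10 to 2.62 CPM) and lymphocytes (5.48 to 8.54 and 4.07 to 14.8 CPM) had 0 members that passed the edgeR test. Spp1 and Krt23 were the largest parts of the cholangiocyte sums in KO. Krt23 was at 43.3 to 70.1 CPM in KO and 0.419 to 17.7 CPM in WT. Spp1 overlapped between the groups (83.4 to 103 CPM in KO and 46.0 to 90.8 CPM in WT). In the macrophage list Trem2 was higher in KO (edgeR adjusted p = 0.024, up to 0.0963 when a library was left out). Adipocyte markers summed to at most 0.502 CPM in KO and 0.785 CPM in WT, and 3 of 5 exocrine pancreas markers were at 0 in all libraries. Of the pancreas list Cela1 alone could be tested. It was at 7.35 to 8.53 CPM in KO and 13.4 to 56.9 CPM in WT, highest in WT replicate 2. Its log2 fold change of -1.98 (SE 0.50) did not pass (edgeR adjusted p = 0.0607).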

How the data were processed

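RNA of 6 liver samples was measured by RNA-seq. Tissue was snap frozen, Trizol was used for RNA and an Illumina TruSeq kit for the libraries, per the labels' protocols. The authors deposited whole-number read counts per gene symbol, 1 column per library, with no normalization. The build mm10 and the tools edgeR 3.20.8, Subread 1.5.3, featureCounts and STAR 2.5 are in the submitters' processing notes, without their roles. The annotation, strand setting and treatment of reads matching several genes are details not given in the sources used here.

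The labelled genotype set the groups, and replicate numbers follow accession order and pair no samples. The labels do not say whether each sample came from a different animal or batch, and p-values measure just their spread, which may be technical. No pair was a duplicate: the chi-square of counts per degree of freedom was 21.5 to 134 within groups.

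Counts were tested over all genes with edgeR 4.0.16 in R 4.3.3 (filterByExpr with a minimum count of 10 and a minimum total of 15, TMM factors, glmQLFit with robust dispersion, a two-sided quasi-likelihood test of KO against WT). P-values were adjusted over 12945 genes (Benjamini-Hochberg, threshold 0.05). SEs were derived from the log2 fold change and F. Positions and exon lengths (union over transcripts) came from GENCODE M21 (mm10), in which 23334 of 24421 symbols matched 1 gene, and start regions from RefSeq (GRCm38.p6), in which all 7 members matched. Protein sequences were not used here. The members, lists, motifs and named genes were chosen with earlier results of these data known. Named were the members, Sesn3, the main IGF system genes, every list gene that passed, and for each member that passed or did not overlap the 3 genes with the most similar log2 CPM (prior count 0.5); other genes, named where few of a list passed, were chosen after their values were seen. Other settings tried were DESeq2 1.42.0, limma-voom (limma 3.58.1), other scaling (RLE, upper-quartile, library size only), other filters (none, 1 CPM in 3 libraries), dispersion without the robust option, and each library left out. Figures were drawn with matplotlib 3.10.9.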

Additional observations from a re-analysis of the deposited data

How the results depend on the processing

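The count of called genes over the whole table was 898 and went to 1982 with DESeq2 and to between 101 and 962 without 1 library. The count of IGF-binding protein genes called was 2, and 1 (Igfbp3) with upper-quartile factors and with library size only, and between 0 and 2 without 1 library, where 0 were called without KO replicate 1, KO replicate 2 or WT replicate 3. It was 2 with RLE factors, both other filters, DESeq2, limma-voom and no robust dispersion. The count of other IGF system genes called was 10, and between 2 and 10 without 1 library. The log2 fold change of Igf1r was 0.12 and ranged from -0.20 (without KO replicate 2) to 0.29 without 1 library. Of 308 refitted values of single named genes, 268 kept their direction and side of the threshold, 38 lost the call, 1 gained it (Igfbp1 without WT replicate 1) and 1 changed sign. Fits without 1 library hold fewer samples, and why calls were lost was otherwise not tested. No paired analysis was possible because the labels carry no replicate numbers shared between the genotypes. Depth limits Igfbp6, with 13 to 37 counts per library, and the proteases that were not tested.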
